A study of Mus musculus with 8 samples.

Results

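The genes followed here encode 8 chemokines: the CC chemokines Ccl2, Ccl6, Ccl7, Ccl8 and Ccl9 and the CXC chemokines Cxcl1, Cxcl12 and Cxcl14. They were found as the probe sets whose only annotated gene symbol was 1 of these 8, which gave 12 of 22626 probe sets on the array and 8 of the 12393 genes with such a probe set. Ccl6, Ccl9, Cxcl12 and Cxcl14 had 2 probe sets each and the other 4 genes had 1. RNA came from the left ventricle of male mice aged 2 to 4 months, of the inbred strains MRL/MpJ, known for closing ear punches with little scar, and C57BL/6, a common laboratory strain. In each strain there was 1 array for an untreated heart and 1 array for each of 3, 30 and 60 days after the left anterior descending coronary artery was ligated, which infarcts the left ventricle, so that 8 groups had 1 array each. The hearts without ligation had no sham operation on their labels, so ligation and the surgery around it cannot be told apart. The labels do not say whether an array held RNA of 1 animal or of several, nor whether the age was that at ligation or at harvest.

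Chemokines bind receptors of the G protein-coupled family on leukocytes and other cells and draw those cells along a gradient. CC and CXC chemokines are told apart by whether the leading pair of conserved cysteines is adjacent or separated by a residue. After a heart infarct, CC chemokines such as Ccl2 are known for bringing in monocytes through Ccr2, CXC chemokines such as Cxcl1 for bringing in neutrophils through Cxcr2, and Cxcl12 for holding and recruiting cells that carry Cxcr4. Ccl2, Ccl7 and Ccl8 (the monocyte chemoattractant proteins) and, in a separate group, Ccl9 and Ccl6 lie near each other on chromosome 11, while Cxcl1, Cxcl12 and Cxcl14 lie on chromosomes 5, 6 and 13.

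RefSeq promoter sequences were held for 6 of the 8 genes, without Ccl2 and Ccl7. The 4 printed here are the 120 bases before the start of each gene on build GRCm38.p6. Ccl8 and Cxcl1 are shown because all their ligated arrays lay above both untreated arrays, and Ccl6 and Ccl9 because they are chromosomal neighbours whose promoters share a run. Capitals mark a TATA box in Ccl8, overlapping matches to the kappa B consensus in Cxcl1, and the longest run shared by Ccl6 and Ccl9.
Ccl8, chr11:82115065-82115184, plus strand: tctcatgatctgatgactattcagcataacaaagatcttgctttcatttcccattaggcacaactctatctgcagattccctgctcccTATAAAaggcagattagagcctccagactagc
Cxcl1, chr5:90891125-90891244, plus strand: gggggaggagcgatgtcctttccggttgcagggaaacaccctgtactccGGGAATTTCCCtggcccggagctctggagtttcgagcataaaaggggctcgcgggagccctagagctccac
Ccl6, chr11:83593088-83593207, minus strand: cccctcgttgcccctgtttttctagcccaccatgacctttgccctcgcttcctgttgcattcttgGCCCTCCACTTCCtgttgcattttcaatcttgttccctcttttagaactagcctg
Ccl9, chr11:83578637-83578756, minus strand: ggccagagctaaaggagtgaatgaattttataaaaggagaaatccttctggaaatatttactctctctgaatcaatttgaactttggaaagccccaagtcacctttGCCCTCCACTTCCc

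In these sequences the TATA box of Ccl8 ran from base -32 to base -27 before the start. In Cxcl1 the kappa B consensus, bound by NF-kappa B factors, matched on the plus strand from -71 to -62 and, overlapping it, on the minus strand from -70 to -61. The shared run of 13 bases lay from -55 to -43 in Ccl6 and from -14 to -2 in Ccl9, and no other pair among the 6 promoters shared more than 9 bases in a row. Both strands of the 250 bases before each start were searched for TATAAA, the kappa B consensus, TGANTCA (AP-1) and TTCNNNGAA (STAT factors), which occurred in 13.0%, 7.01%, 6.87% and 7.18% of 27025 promoters. Ccl9 also matched TATAAA, the kappa B consensus and the AP-1 motif, and Cxcl14 the STAT motif. These letters were not found in the Ccl6 and Cxcl12 windows. A match is a description of the letters and not a site shown to be used.

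Facts of the whole series set the limits of what follows. Median signals per array lay between 112.8 and 139.5, and 0 pairs of arrays held identical values. Across the genes kept, the 7 pairs of arrays with the C57BL/6 day 30 array correlated at 0.844 to 0.877, and the other 21 pairs at 0.884 to 0.948. That array stood apart, so the day 30 changes of the chemokines, and the day 30 medians of the lists, are given with and without it. The 6 heart muscle genes used as a check of the tissue (Myh6, Myl2, Tnnt2, Actc1, Tnni3 and Myl3) were all among the genes kept, with a summed signal of 116172 to 229828 in ligated arrays and 118996 to 133980 in untreated ones. No group had a replicate, so the order of 2 neighbouring levels within a gene cannot be judged against a spread within groups. P-values here measure the spread between these arrays only, which takes in differences between the strains in their changes over time.

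A signal of 121 was the median of the whole table and served as the mark of background. Ccl7 stayed below it on all 8 arrays, and Cxcl1 reached it on 1 array. Ccl2 reached it on 3 arrays, all of them after ligation. Ccl6, on its brightest probe set, reached it on 7 arrays, and Ccl8, Ccl9, Cxcl12 and Cxcl14 on all 8. Genes with a signal of at least 121 on 2 or more arrays were kept for testing, which left 6 of the 8 chemokines (4 CC and 2 CXC) and 8208 genes in all. Ccl2 passed only through ligated arrays, so its place among the genes kept already favours a higher signal after ligation. The same holds for any gene or probe set named below that was under 121 on both untreated arrays.

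**Figure D1:**
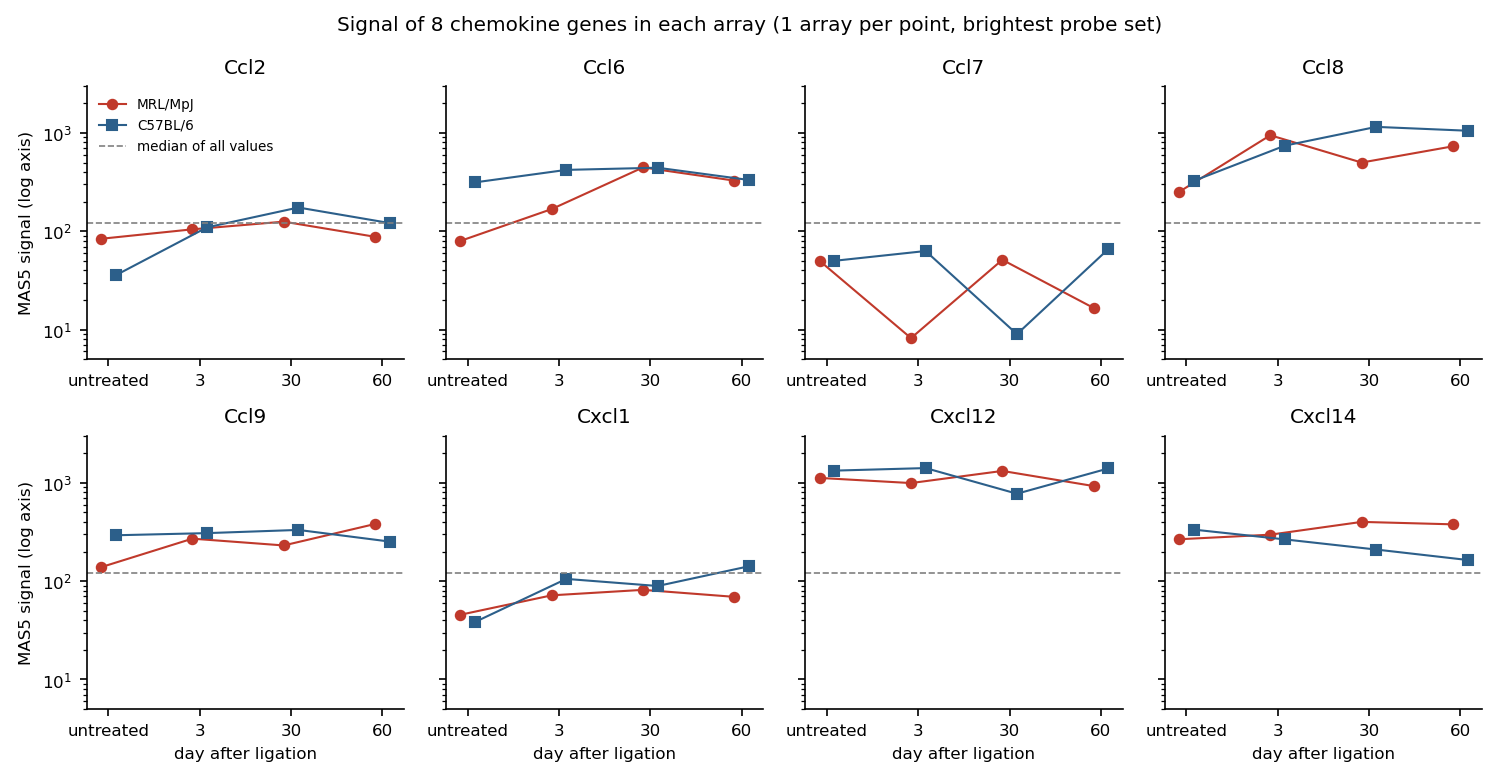
MAS5 signal (vertical, log axis) of the 8 chemokine genes on their brightest probe set, against day after ligation, with MRL/MpJ as red circles, C57BL/6 as blue squares, 1 array per point and the table median of 121 as a dashed line. Ccl8 lay higher after ligation than before it in both strains, Ccl7 stayed under the dashed line throughout, and the Cxcl12 and Cxcl14 points showed no common direction across strains.

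Ccl8, also called monocyte chemoattractant protein 2, had a higher signal on every ligated array than on either untreated one. In MRL/MpJ its signal was 251.1 in the untreated array and 947, 499.8 and 731.1 on days 3, 30 and 60. In C57BL/6 the signals were 324.9 untreated and 742.7, 1152.1 and 1053 on the same days. The 6 ligated arrays spanned 499.8 to 1152.1 and the untreated arrays 251.1 to 324.9, with the highest MRL/MpJ signal on day 3 and the highest C57BL/6 signal on day 30. Changes were estimated as log2 of the signal plus 28.6, an offset that compresses differences between dim signals, in an additive limma model of strain and time point that holds all 8 arrays. On this scale Ccl8 was higher by 1.46 (SE 0.35) on day 3, by 1.33 (SE 0.35) on day 30 and by 1.53 (SE 0.35) on day 60, each from 2 arrays against 2.

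None of these passed the threshold, an adjusted p under 0.05 over the 8208 genes: the limma adjusted p was 0.336, 0.269 and 0.182 on days 3, 30 and 60. All day contrasts use the same 2 untreated arrays, so they are not independent of each other. Without the C57BL/6 day 30 array the day 30 change of Ccl8 was 0.83. With only the 4 day 60 and untreated arrays in the fit the day 60 change was 1.53 with adjusted p = 0.0285 in limma, but that fit leaves 1 residual degree of freedom and calls 143 of 8208 genes. In a whole-tissue sample, fewer cells of a type and less RNA per cell cannot be told apart, here and for every gene below.

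Ccl2, or monocyte chemoattractant protein 1, is the main ligand of Ccr2. In MRL/MpJ it gave 83.9 untreated and 104.7, 125.3 and 87.9 on days 3, 30 and 60, while in C57BL/6 it gave 35.7 untreated and 109.6, 174.5 and 121.2. The ligated arrays (87.9 to 174.5) all lay above the untreated ones (35.7 and 83.9), but the closest pair, MRL/MpJ day 60 and untreated, differed by little. The fitted log2 values were 0.67 (SE 0.33) on day 3, 1.06 (SE 0.33) on day 30 and 0.64 (SE 0.33) on day 60, with limma adjusted p = 0.789, 0.341 and 0.557. Both untreated arrays, and on day 3 all 4 arrays compared, lay under background, so no size of change is read from these values. They also hung on single arrays: without the untreated C57BL/6 array they were 0.13 on day 3 and 0.10 on day 60, and without the untreated MRL/MpJ array 1.21 and 1.17. The day 30 value was 0.79 without the C57BL/6 day 30 array.

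Ccl7, monocyte chemoattractant protein 3 and another Ccr2 ligand, showed no usable signal. Its values were 50, 8.2, 51.3 and 16.6 in MRL/MpJ and 50.1, 63, 9 and 65.9 in C57BL/6 over untreated and days 3, 30 and 60. They lie below background on every array, so neither an order nor a change was read from them.

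Ccl6 is a CC chemokine described in rodents and made by myeloid cells. Its brightest probe set, 1417266_at, gave 79.8 in untreated MRL/MpJ and 168.2, 445.9 and 327.4 on days 3, 30 and 60, against 314.2 in untreated C57BL/6 and 421, 442.8 and 332.3 on those days. MRL/MpJ was thus below background untreated and close to C57BL/6 on days 30 and 60, and the groups of ligated arrays (168.2 to 445.9) and untreated arrays (79.8 and 314.2) overlapped. The log2 change was 0.63 (SE 0.43) on day 3, 1.29 (SE 0.43) on day 30 and 0.89 (SE 0.43) on day 60, with limma adjusted p = 0.845, 0.365 and 0.523. It was 1.78 on day 30 when the C57BL/6 day 30 array was left out.

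The other probe set of Ccl6, 1420249_s_at, gave 93.6, 139.2, 198.7 and 137.1 in MRL/MpJ and 112.4, 240.3, 298.4 and 147.3 in C57BL/6 over untreated and days 3, 30 and 60. Here every ligated array lay above both untreated arrays, and both strains were highest on day 30. Both untreated signals were under background, so this probe set was kept through ligated arrays alone, which favours a higher signal after ligation. In the fit over the 13280 probe sets kept, the change was 0.69 on day 3, 1.05 on day 30 and 0.38 on day 60, each with SE 0.26. The limma adjusted p was 0.700, 0.252 and 0.650. Without the C57BL/6 day 30 array the day 30 change was 0.95. The probe sets of Ccl6 correlated at r = 0.746 over the 8 arrays, which is a description, since both were read from the same RNA.

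Ccl9, a ligand of Ccr1 found in rodents, lay above background on all 8 arrays on its brightest probe set. On 1417936_at MRL/MpJ gave 138.6 untreated and 270.2, 230.5 and 380.9 on days 3, 30 and 60, while C57BL/6 gave 292.5 untreated and 307.6, 331.5 and 252.4. The untreated MRL/MpJ array was the lowest of the 8, and the C57BL/6 arrays differed little among themselves. The log2 change over both strains was 0.45 (SE 0.35) on day 3, 0.40 (SE 0.35) on day 30 and 0.55 (SE 0.35) on day 60, with limma adjusted p = 0.862, 0.674 and 0.629. Leaving out the C57BL/6 day 30 array gave 0.26 on day 30.

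The other Ccl9 probe set, 1448898_at, gave 60.7, 120.5, 112 and 252.1 in MRL/MpJ and 180, 173.3, 120.6 and 133 in C57BL/6 over the same time points. Again untreated MRL/MpJ was the lowest array and MRL/MpJ day 60 the highest. The probe sets of Ccl9 correlated at r = 0.888 over the 8 arrays.

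Cxcl1, a neutrophil attractant that signals through Cxcr2, lay mostly under background. Its signal was 45.5, 71.7, 81.5 and 69.2 in MRL/MpJ and 38.4, 105.3, 89.2 and 141.6 in C57BL/6 over untreated and days 3, 30 and 60. Although every ligated array (69.2 to 141.6) lay above both untreated arrays (45.5 and 38.4), 1 array alone reached 121 and the gene was not tested.

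Cxcl12, the ligand of Cxcr4 made by stromal and vascular cells, gave different pictures on its probe sets. On the brightest, 1417574_at, MRL/MpJ gave 1119.9 untreated and 992.9, 1319 and 925.7 on days 3, 30 and 60, and C57BL/6 gave 1328.5 untreated and 1410, 773.8 and 1397.7. Ligated and untreated arrays overlapped there, with the lowest signal in C57BL/6 day 30. The log2 change was -0.04 (SE 0.35), -0.26 (SE 0.35) and -0.10 (SE 0.35) on days 3, 30 and 60, with limma adjusted p = 0.990, 0.786 and 0.955. Without the C57BL/6 day 30 array the day 30 value was 0.33, with the sign turned.

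On 1448823_at, by contrast, MRL/MpJ gave 252.2 untreated and 820, 608.8 and 488.8 on days 3, 30 and 60, and C57BL/6 gave 226.3 untreated and 459.7, 453.3 and 611.2. All 6 ligated arrays (453.3 to 820) lay above both untreated arrays (252.2 and 226.3), with the highest signal in MRL/MpJ on day 3. The log2 change was 1.27 (SE 0.31), 1.05 (SE 0.31) and 1.10 (SE 0.31) on days 3, 30 and 60, with limma adjusted p = 0.367, 0.315 and 0.274 over the 13280 probe sets. Without the C57BL/6 day 30 array the day 30 change was 1.15. The probe sets of Cxcl12 correlated at r = -0.124 over the 8 arrays. Which transcripts each of them reads was not tested.

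**Figure D2:**
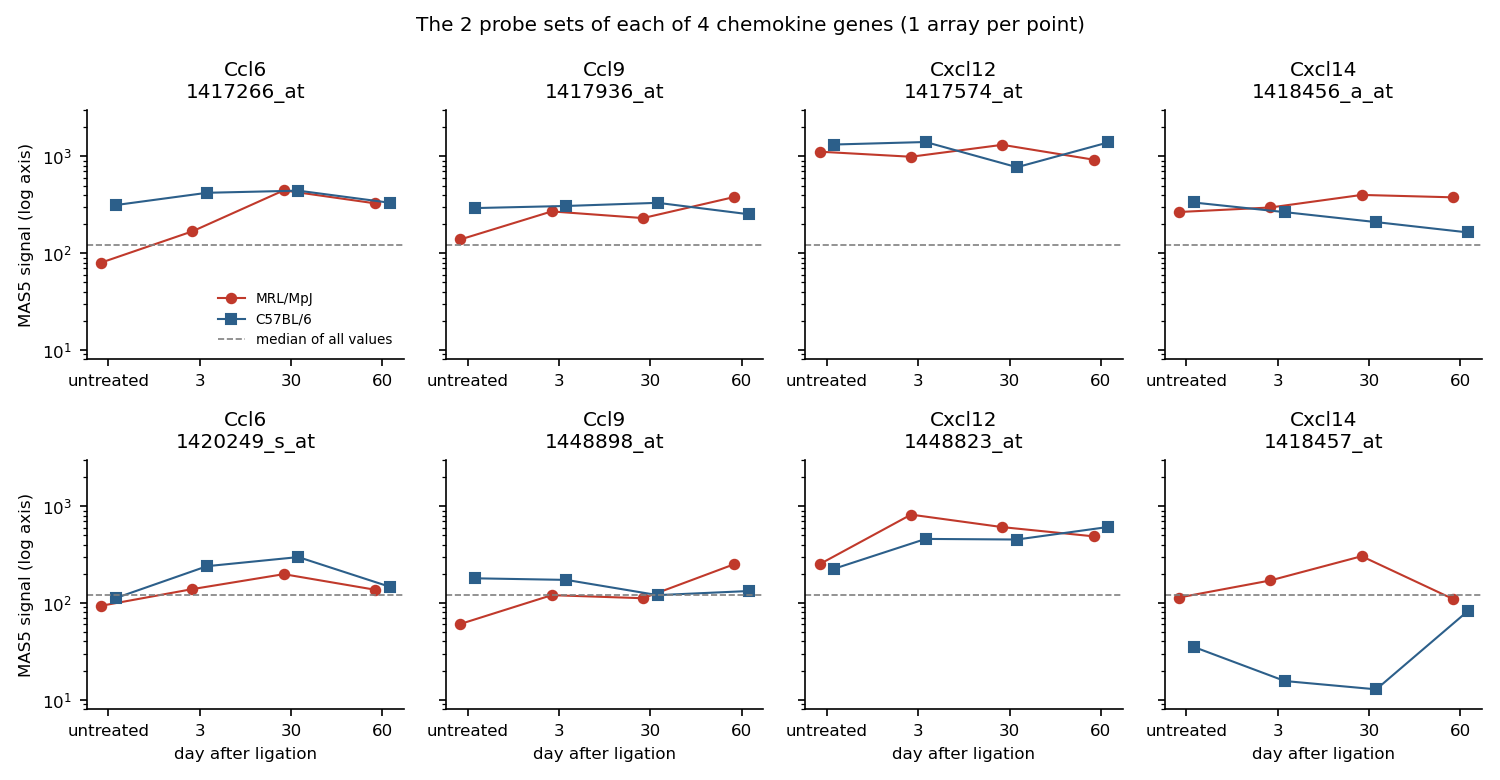
MAS5 signal (vertical, log axis) of both probe sets of Ccl6, Ccl9, Cxcl12 and Cxcl14, brightest above, against day after ligation, with MRL/MpJ as red circles, C57BL/6 as blue squares, 1 array per point and the table median of 121 dashed. The Ccl9 pair ran alike (r = 0.888), while 1448823_at of Cxcl12 was higher in all 6 ligated arrays and 1417574_at was not (r = -0.124).

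Cxcl14, a CXC chemokine of epithelia and other resting tissues, had no common direction after ligation. On 1418456_a_at MRL/MpJ gave 266.4 untreated and 296.6, 400.1 and 377.8 on days 3, 30 and 60, and C57BL/6 gave 334.1 untreated and 265.5, 209.4 and 164. The MRL/MpJ signals after ligation were thus all above their untreated array and the C57BL/6 signals all below theirs, a pattern of opposite signs on all 3 days that was also found on 1448898_at of Ccl9 and on 5.98% of the probe sets kept. Over both strains the log2 change was -0.08 (SE 0.36), -0.03 (SE 0.36) and -0.23 (SE 0.36) on days 3, 30 and 60, with limma adjusted p = 0.978, 0.981 and 0.868. Without the C57BL/6 day 30 array the day 30 value was 0.24, with the sign turned.

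The dimmer probe set of Cxcl14, 1418457_at, gave 113.9, 171, 304.6 and 110.1 in MRL/MpJ and 35.2, 15.6, 12.8 and 82.1 in C57BL/6 over untreated and days 3, 30 and 60. Every MRL/MpJ array (110.1 to 304.6) lay above every C57BL/6 array (12.8 to 82.1), and the C57BL/6 signals were all under background. MRL/MpJ was higher in all 4 time points on 9.22% of the probe sets kept. 1418457_at itself was kept through MRL/MpJ arrays alone, which favours a higher MRL/MpJ signal. The fitted strain difference was a log2 of 1.67 (SE 0.40, 4 arrays against 4, limma adjusted p = 0.249), from which no size is read because 1 side lay under background, and 0.44 (SE 0.25, limma adjusted p = 0.697) on the brightest probe set. The probe sets of Cxcl14 correlated at r = 0.473.

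Ccl2 is left out of the counts and medians over 5 chemokines that follow, since it was kept only through ligated arrays. Of the other 5 chemokines kept, 3 (Ccl6, Ccl8 and Ccl9) had a positive log2 change on each of days 3, 30 and 60, and Cxcl12 and Cxcl14 were below 0 on their brightest probe sets. All 5 were above 0 on day 30 when the C57BL/6 day 30 array was left out. The median over the 5 was 0.45, 0.40 and 0.55 on the 3 days, beside 0.02, -0.01 and -0.06 over all 8208 genes, and without that array it was 0.33 on day 30, beside -0.05 over all genes. No chemokine, Ccl2 included, was called by limma on any day, where 0%, 0.0122% and 0.0365% of all genes were called. In the fit over probe sets, none of the 10 member probe sets kept was called either, where 0.0151%, 0.00753% and 0.136% of all probe sets were called on the 3 days and 0.422% between strains. At an unadjusted p under 0.05 there was 1 of the 5 on day 3 (Ccl8), 2 on day 30 (Ccl6 and Ccl8) and 1 on day 60 (Ccl8), beside 6.54%, 11% and 10.6% of all genes. With the C57BL/6 day 30 array left out there were 2 on day 30, again Ccl6 and Ccl8, beside 9.56% of all genes. Signals of all 6 ligated arrays above both untreated arrays were found on 5 of the 12 member probe sets and on 5.51% of all 22626 probe sets. These 5 were the probe sets of Ccl2, Ccl8 and Cxcl1, 1420249_s_at of Ccl6 and 1448823_at of Cxcl12. That count was made without the filter, so Ccl2 is in it. The probe sets of Ccl2 and Cxcl1, and 1420249_s_at of Ccl6, were under background on both untreated arrays.

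**Figure D3:**
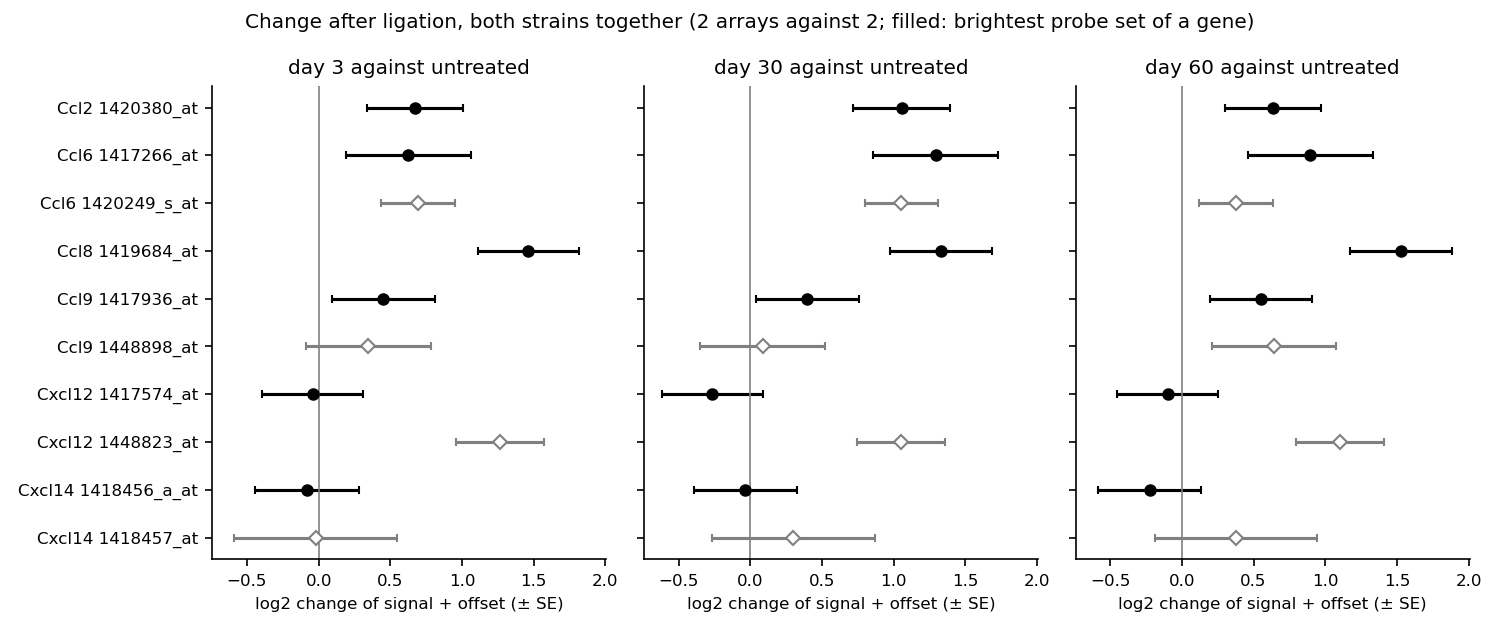
Log2 change of signal plus offset (horizontal, ± SE from limma) of each member probe set kept, for days 3, 30 and 60 against untreated, 2 arrays against 2 in each panel, with the brightest probe set of a gene filled and the other open. Ccl8 lay between 1.33 and 1.53 on all 3 days, 1448823_at of Cxcl12 between 1.05 and 1.27, and the other Cxcl12 probe set near 0.

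Days 30 and 60 together against day 3 ask whether the chemokines differ between the late scar and the early infarct. Of the 6 members, 3 were above and 3 below 0, with a median of -0.01 beside -0.05 over all genes. Leaving out the C57BL/6 day 30 array put 4 above 0, with a median of 0.06 beside -0.06. None was called by limma, nor was any of the 8208 genes (0%), and 0 members had an unadjusted p under 0.05, beside 5.53% of all genes. The value for Ccl6 was 0.47 (SE 0.38, limma adjusted p = 0.951).

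Against each strain's own untreated array, 1 array against 1 and with no test, the members at least 2-fold higher on their brightest probe sets were counted with the offset added and with each signal under 121 set to 121, so that a fold over a dim array is a lower bound. In MRL/MpJ they were Ccl8 on day 3 (3.49-fold), Ccl6 on day 30 (at least 3.17-fold), and Ccl6 (at least 2.38-fold), Ccl8 (2.72-fold) and Ccl9 (2.45-fold) on day 60, where 2.84%, 1.54% and 3% of all genes kept passed this limit. In C57BL/6 Ccl8 alone passed on a brightest probe set, with folds of 2.18, 3.34 and 3.06 on days 3, 30 and 60. There 0.828%, 4.71% and 1.99% of all genes passed. For Ccl2 the bound stayed under this limit on all days in both strains, at most 1.36-fold, on day 30 in C57BL/6. Ccl8 was thus past the limit on 5 of the 6 strain and day combinations, all but MRL/MpJ day 30 (1.89-fold). The dimmer probe sets gave other results. 1420249_s_at of Ccl6 passed in C57BL/6 on day 30 (at least 2.19-fold), with a bound of at most 1.52-fold in MRL/MpJ. 1448823_at of Cxcl12 passed in MRL/MpJ on days 3 and 30 (3.02- and 2.27-fold) and in C57BL/6 on day 60 (2.51-fold). 1418457_at of Cxcl14 passed in MRL/MpJ on day 30 (at least 2.23-fold). The shares of all genes are for brightest probe sets.

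Where the strains were apart differed from gene to gene. Ccl6 on its brightest probe set was lower in MRL/MpJ than in C57BL/6 in the untreated arrays (79.8 against 314.2) and on day 3 (168.2 against 421), while its other probe set was lower mainly on days 3 and 30. Ccl9 was lower in untreated MRL/MpJ (138.6 against 292.5), and Ccl8 was lower in MRL/MpJ most of all on day 30 (499.8 against 1152.1). A term for the difference between the strains' mean changes, MRL/MpJ minus C57BL/6, was 1.26 (SE 0.61) for Ccl6 and 0.91 (SE 0.54) for Ccl9, each with limma adjusted p = 0.99995 over 13280 probe sets. The other Ccl6 probe set gave -0.22 (SE 0.47), the opposite sign. Each strain had 1 untreated array, and that of MRL/MpJ was under background for Ccl6.

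Over all time points, MRL/MpJ against C57BL/6 gave 5 of the 6 members below 0, Ccl2 at -0.00 among them, and Cxcl14 above it, with a median of -0.20 beside -0.02 over all genes. Without the C57BL/6 day 30 array 4 were below 0, with a median of -0.18 beside 0.02. No member was called by limma, beside 0.219% of all genes, and 1 member, Ccl6, had an unadjusted p under 0.05, beside 7.98% of all genes. The difference for Ccl6 was a log2 of -0.72 (SE 0.31, limma adjusted p = 0.620). The strains were apart in the untreated and day 3 arrays, while on days 30 and 60 they gave 445.9 and 327.4 in MRL/MpJ against 442.8 and 332.3 in C57BL/6. The strain difference was -0.42 (SE 0.25) for Ccl8, -0.26 (SE 0.25) for Ccl9, -0.14 (SE 0.25) for Cxcl12 and -0.00 (SE 0.24) for Ccl2. Their limma adjusted p lay between 0.717 and 0.998.

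Whether the day 3 pair of arrays differed between strains otherwise than the other 3 pairs was asked with an interaction term. Ccl8 had the largest value, 1.01 (SE 0.48): it was higher in MRL/MpJ on day 3 (947 against 742.7) and lower at the other 3 time points. Its limma adjusted p was 0.931. None of the 6 members and none of the 8208 genes (0%) was called, and 0 members had an unadjusted p under 0.05, beside 5.09% of all genes.

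Several receptors of these chemokines were dim, though Ackr3, which scavenges Cxcl12, was above background on all 8 arrays. Of 23 chemokine receptor genes, listed whatever their ligands, 21 had a probe set and 10 were kept, beside 8208 of 12393 genes in all. None of them was called on any day or between strains. Ccr2, the receptor of Ccl2 and Ccl7, had 10.5, 68.7, 43.4 and 43.9 in MRL/MpJ and 8.6, 35.2, 77.6 and 48.9 in C57BL/6 over untreated and days 3, 30 and 60, all under background. The receptor of Cxcl12, Cxcr4, was under background as well, at 68.8 to 96.7 in MRL/MpJ and 58 to 117.2 in C57BL/6. Ccr1 and Cxcr2 also stayed below 121 on every array.

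The receptors kept had a median change of 0.32, 0.22 and 0.20 on days 3, 30 and 60, and of -0.19 on day 30 without the C57BL/6 day 30 array. Ackr4, a scavenger of CC chemokines, had the largest day 3 value (1.12, SE 0.59), followed by Ackr3 (-0.56, SE 0.41), a scavenging receptor for Cxcl12, Cxcr3 (0.56, SE 0.31), a receptor of activated T cells, and Ccr6 (0.55, SE 0.25). Ackr4 and Xcr1 were under background on both untreated arrays and kept through ligated arrays alone, so no size is read from the Ackr4 value. Ackr3 had signals of 587.7, 379, 496.6 and 417.1 in MRL/MpJ and 749.4, 510.4, 198.9 and 491.4 in C57BL/6 over untreated and days 3, 30 and 60. Between strains the largest values were -0.76 (SE 0.42) for Ackr4 and -0.64 (SE 0.18) for Ccrl2. The limma adjusted p of the values named here lay between 0.363 and 0.848.

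Of 29 further chemokine ligands listed, 26 had a probe set and 8 were kept, with 0 called. On day 3 all 8 were above 0, with a median of 0.28, and on days 30 and 60 there were 6 and 4 above 0, the medians being 0.48 and 0.01. On day 30 the median was 0.01 once the C57BL/6 day 30 array was left out. Ccl5 and Ccl17, part of the 8, were under background on both untreated arrays. They were kept through ligated arrays alone, which favours values above 0, and no size is read from them. The largest day 3 values belonged to Ccl5 (0.72, SE 0.57), an attractant of T cells, Cxcl13 (0.62, SE 0.36), an attractant of B cells, Cxcl16 (0.30, SE 0.33), the ligand of Cxcr6, and Ccl4 (0.30, SE 0.27), an attractant of monocytes and T cells. Ccl4 (-0.42, SE 0.19) and the platelet chemokine Pf4 (-0.40, SE 0.18) had the largest strain differences. Limma adjusted p lay between 0.647 and 0.896 for these.

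Markers of monocytes, macrophages and fibroblasts also had higher signals after ligation, without passing the test. Of 11 monocyte and macrophage markers, 9 were kept and all 9 were above 0 on each day, with medians of 1.09, 0.80 and 0.77, and 0 were called. Leaving out the C57BL/6 day 30 array, 7 were above 0 on day 30, with a median of 0.78. Their summed signal was 7753 to 10934 in ligated arrays and 4131 to 5974 in untreated ones, Cd163 and Itgam were under background on every array, and no marker was at 0. On day 3 Mpeg1 (2.06, SE 0.28), Lgals3 (1.93, SE 0.42), Lyz2 (1.15, SE 0.36) and Cd68 (1.09, SE 0.26) had the largest values. Untreated signals in C57BL/6 and MRL/MpJ were 69.4 and 99 for Mpeg1 and 66.8 and 64 for Lgals3. Both genes were thus kept through ligated arrays alone, which favours values above 0, and no size is read from them. They are part of the 9 counted and of the medians. Between strains Mpeg1 (0.49, SE 0.20) and Adgre1 (-0.26, SE 0.20) differed the most. The part of these cells in the changes of Ccl2, Ccl6, Ccl8 and Ccl9 was not tested.

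All 6 fibroblast markers were kept and above 0 on each day, with medians of 2.27, 1.52 and 1.49 (1.48 on day 30 without the C57BL/6 day 30 array) and 0 called, and their summed signal was 16789 to 38837 in ligated arrays and 6576 to 7056 in untreated ones. The largest day 3 values were 3.09 (SE 0.34) for Col1a1, 3.09 (SE 0.60) for Postn, 2.93 (SE 0.32) for Col1a2 and 1.61 (SE 0.27) for Lum. Lum (1.08, SE 0.19) and Col1a2 (0.43, SE 0.22) had the largest strain differences. The sum was highest in MRL/MpJ day 3, where 1448823_at of Cxcl12 was also highest. The part of fibroblasts in that value was not tested.

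For neutrophil markers the ligated and untreated arrays overlapped: of 8 listed, 7 had a probe set and 5 were kept, with a summed signal of 549 to 871 in ligated arrays and 696 to 791 in untreated ones. Elane and Camp were under background on every array, and day 3 values ran from -0.57 (S100a9) to 0.34 (Ngp), with Csf3r at -0.25 and Mpo at 0.23. S100a9 (-1.56, SE 0.36) and Csf3r (0.99, SE 0.34) had the largest strain differences, with limma adjusted p = 0.259 and 0.500. Csf3r was kept through MRL/MpJ arrays alone, those of days 30 and 60 (131.5 and 133.2), which favours a higher MRL/MpJ signal. Its C57BL/6 signals (13.8 to 115.1) were all under background, so no size is read from its values. None of the 4 T cell markers with a probe set was kept. Endothelial markers had 5 of 5 kept and below 0 on day 3, with a median of -0.24, led by Tie1 (-0.63), Cdh5 (-0.31), Kdr (-0.24) and Pecam1 (-0.13), and 4 mural and 2 mast cell markers were kept, with 0 called.

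**Figure D4:**
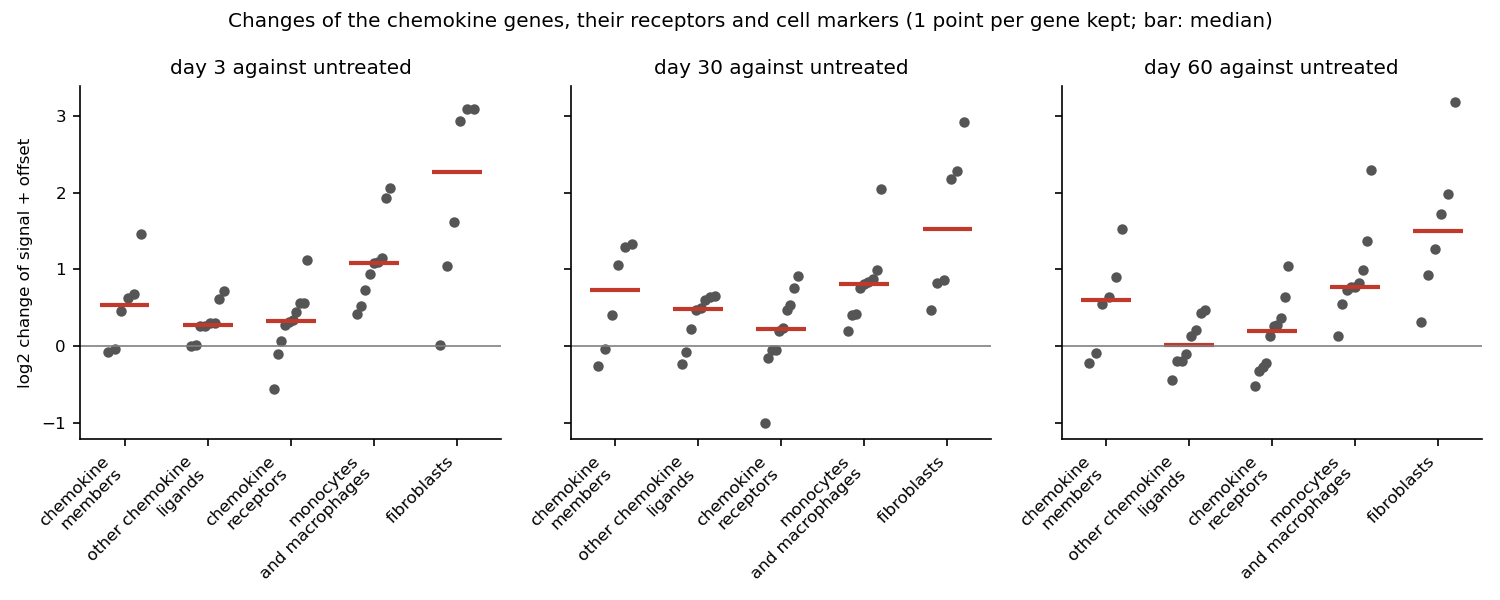
Log2 change of signal plus offset (vertical) on days 3, 30 and 60 against untreated, 2 arrays against 2, for each gene kept among the chemokines, the other chemokine ligands, the chemokine receptors and the markers of monocytes and macrophages and of fibroblasts, with 1 point per gene and a red bar at the median. Day 3 medians were 0.54 for the 6 chemokines with Ccl2, 0.28 for the other ligands, 0.32 for the receptors, 1.09 for the macrophage markers and 2.27 for the fibroblast markers. Some of these genes, Ccl2 among them, were kept through ligated arrays alone, which favours values above 0.

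For each chemokine kept, the genes whose log2 signal was most like it over the 8 arrays were looked up by Pearson's r, as a description. Ccl8 was most like Epha2 (r = 0.973), Cdk1 (r = 0.971) and Fmod (r = 0.967). Fmod, a collagen-binding proteoglycan gene, had 60.2, 606.4, 212.3 and 461.2 in MRL/MpJ and 134.7, 243.1, 758.2 and 751.2 in C57BL/6 over untreated and days 3, 30 and 60, with the same day 3 peak in MRL/MpJ as Ccl8. Ccl2 was most like Mettl3 (r = 0.976), Rnf130 (r = 0.971) and Hey1 (r = 0.968), and Ccl6 most like Atxn7l3 (r = 0.952), Cert1 (r = 0.919) and Ddx3x (r = 0.916).

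Ccl9 was most like Prkra (r = 0.941), Mid2 (r = 0.931) and Jund (r = 0.910), and Cxcl12 on its brightest probe set most like Dnajc11 (r = 0.956), Cav1 (r = 0.954) and Mef2c (r = 0.948). Cxcl14 was most like Csf3r (r = 0.952), the receptor gene for granulocyte colony-stimulating factor, Tpsab1 (r = 0.867), a mast cell tryptase gene, and Tgm3 (r = 0.867). Csf3r had 92.5, 111.8, 131.5 and 133.2 in MRL/MpJ and 115.1, 59.3, 24.7 and 13.8 in C57BL/6 over untreated and days 3, 30 and 60. All but 2 of these signals, those of MRL/MpJ on days 30 and 60, lay under background. Each of these genes was picked from 8208 for its r, over 8 arrays that share a design. Cxcl12 and the genes most like it were all lowest on the C57BL/6 day 30 array, which stood apart. Ccl2, Ccl8 and the genes most like them were all highest on that array. No r was computed without it.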

How the data were processed

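Left ventricle RNA was measured on 8 Affymetrix arrays. The authors made MAS5 signal intensity values, per the submitters' processing notes, and deposited them on a linear scale. Scanner files, detection calls and control probe sets were not used here, and the number of arrays limits the precision. The platform annotation gave 1 symbol to 20380 probe sets, several to 691 and none to 1555. Each gene was represented by its brightest probe set. Intensity values were transformed as log2(signal + 28.6), the offset being the 20th percentile of all values, with no further normalization, and kept at a signal of at least 121 on 2 arrays.

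Linear models were fitted with limma 3.58.1 (R 4.3.3) and moderated by eBayes. P-values were adjusted by Benjamini-Hochberg over every gene or probe set kept, with 3 residual degrees of freedom in the additive model and 2 with an interaction. The procedure was tested on simulated data. Alternatives were other offsets, filters, normalizations, variance models, probe set rules and subsets of arrays, plus, chosen after seeing the data, the interaction over ligated arrays, alternatives for dimmer probe sets, list medians without 1 array and a floor under single-array folds. Members and lists were chosen with earlier results of these data known. From each list up to 4 genes with the largest day 3 value and 2 with the largest strain value were named, with 3 genes most like each member. Ccr2, Cxcr4, Ccr1 and Cxcr2 were named as receptors of members, and genes under background were named after their values were seen.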

Additional observations from a re-analysis of the deposited data

Results flagged for a closer look

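On 2 member probe sets the strains differed from their untreated array in opposite directions on all 3 days after ligation. On 1448898_at of Ccl9 the mean log2 change from untreated was 1.02 in MRL/MpJ and -0.30 in C57BL/6, a difference of 1.32. On 1418456_a_at of Cxcl14 it was 0.38 in MRL/MpJ and -0.61 in C57BL/6, a difference of 0.99. Opposite signs on all 3 days were found on 5.98% of the probe sets kept, and each change was taken against 1 untreated array, which for Ccl9 in MRL/MpJ was under background. A test of the difference itself, added after seeing the data, gave limma adjusted p = 0.99995 for both. It called 0 of 13280 probe sets, with 270 at an unadjusted p under 0.05, that of Ccl2 among them. The other probe set of Ccl9 was higher after ligation on 2 of 3 days in C57BL/6, and that of Cxcl14 on 1 of 3.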

How the results depend on the processing

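No member was called under any alternative in any of the 6 comparisons, except on day 60 with only the 4 arrays of that contrast in the fit, where 1 member, Ccl8, was called (limma adjusted p = 0.0285). Ccl8 stayed positive throughout, at 0.96 to 1.97 on day 3, 0.83 to 1.82 on day 30 and 1.30 to 1.60 on day 60, as did 1448823_at of Cxcl12 at 0.91 to 1.63, 0.85 to 1.15 and 0.73 to 1.48. Averaging the probe sets of a gene, which disagree for these genes, turned Cxcl12 to 0.612, 0.393 and 0.503 on days 3, 30 and 60 and to 0.0584 between strains, and Cxcl14 to 0.133 and 0.0763 on days 30 and 60. Quantile normalization gave Cxcl12 0.0270 on day 3. The strain difference of Ccl2, close to 0, became 0.0361 with the 5th percentile offset, 0.0553 with quantile normalization, 0.0530 with centring and 0.131 without both day 30 arrays.

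Leaving out each array in turn turned further signs, and no cause was tested. The fitted values of Ccl2, whose untreated signals were under background, ran from 0.135 to 1.21 on day 3, 0.516 to 1.60 on day 30 and 0.0959 to 1.17 on day 60. Over the 8 arrays the day 3 change ran from -0.00432 to 1.26 for Ccl6, -0.00182 to 0.906 for Ccl9, -0.277 to 0.192 for Cxcl12 and -0.575 to 0.413 for Cxcl14. The day 30 change ran from -0.0551 to 0.852 for Ccl9, -0.857 to 0.329 for Cxcl12 and -0.529 to 0.460 for Cxcl14. On day 60 it ran from -0.390 to 0.194 for Cxcl12 and -0.720 to 0.269 for Cxcl14. The strain difference ran from -0.272 to 0.131 for Ccl2 and -0.438 to 0.00442 for Cxcl12. Ccl6 and Ccl9 on day 3 and Ccl9 on day 30 turned without the untreated MRL/MpJ array. An array left alone at its time point was taken to vary like the others. Each group has 1 array, so there were no replicate numbers to pair. The additive model already holds strain as a covariate for the day contrasts and the time point as a block for the strain difference. Without the time point block 27 of 8208 genes were called for the strain difference, beside 18 with it, and 0 chemokines. Signals near the offset are compressed, which limits what Ccl7, Cxcl1 and the dimmer Cxcl14 probe set can show.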

Other observations

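Genes that act before and after chemokines were looked at as well. Of 16 proteases that can trim chemokines, 9 were kept, and 8, 9 and 7 of them were above 0 on days 3, 30 and 60, with medians of 0.47, 0.83 and 0.51 (0.60 on day 30 without the C57BL/6 day 30 array) and 0 called by limma. The largest day 3 values were 1.84 (SE 0.36) for the lysosomal protease Ctss, 1.62 (SE 0.32) for the gelatinase Mmp2, 1.31 (SE 0.34) for the collagen-degrading Ctsk and 1.30 (SE 0.25) for the membrane-bound Mmp14, with limma adjusted p from 0.184 to 0.408. Ctsk was under background on both untreated arrays (50.6 in C57BL/6 and 105.5 in MRL/MpJ). It was kept through ligated arrays alone, so no size of its day 3 change is read. Mmp2 gave 629.9, 2247.7, 1167.9 and 1598.6 in MRL/MpJ and 448.3, 1282.2, 1593.9 and 1420.7 in C57BL/6 over untreated and days 3, 30 and 60. All its ligated arrays lay above both untreated ones, as on 5.51% of all probe sets. Ctsk (0.61, SE 0.24) and Mmp9 (-0.50, SE 0.17) had the largest strain differences.

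Of 33 cytokines and regulators of the signalling that induces chemokines, inhibitors among them, 21 were kept and 0 were called. On day 3 there were 14 above 0, with a median of 0.21, led by the cytokine signalling inhibitor Socs3 (0.99, SE 0.43), the receptor gene Tlr2 (0.88, SE 0.28), Il17a (0.80, SE 0.30) and the AP-1 subunit gene Fos (0.72, SE 0.42). Untreated signals in C57BL/6 and MRL/MpJ were 83.8 and 14.2 for Socs3 and 102.6 and 68.5 for Il17a, all under background. Both genes were thus kept through ligated arrays alone, Il17a through the day 3 arrays alone (144.4 and 194.8). The same held for Nfkbiz, also part of the 21, which was kept through ligated arrays. This favours day 3 values above 0, and no size is read from these genes. Fos (-0.61, SE 0.30) and the transcription factor gene Cebpb (-0.59, SE 0.31) had the largest strain differences.

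The C57BL/6 day 30 array held the highest signal of 22 of the 47 chemokine receptors and further ligands with a probe set (46.8%), beside 30.7% of all 12393 genes and 2 of the 8 chemokines followed here.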
